A study of Sus scrofa with 8 samples.

Results

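The Toll-like receptors TLR1 to TLR10 were followed in whole lung tissue of 6-month-old pigs. Members were all array probes whose gene symbol was one of these 10 names and whose spot was well above background on at least 1 array. The rule found 12 probes for 9 of the 10 receptors, among 43603 probes in all and 34406 probes well above background on at least 1 array. TLR4 had 4 probes and the other 8 receptors had 1 each. No probe was named TLR5 by the rule, so TLR5 is not analysed here. All 12 probes were well above background on all 8 arrays.

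The design crossed 2 breeds with 2 altitudes, with 2 female pigs a group and 1 array a pig. The TH group held Tibetan pigs raised at 3500 m, and the DL group held Duroc pigs raised at 40 m. The TL group held Tibetan pigs born at high altitude and moved to low altitude at 1 month of age, and the DH group held Duroc pigs moved at the same age from low to high altitude. The move itself therefore differs between groups as well as breed and altitude. Each value below is a quantile-normalized log2 signal of a spot, so a difference of 1 is a 2-fold difference. Effects were estimated with limma. Each term was called on its own at FDR < 0.0001 over all 34406 probes, the threshold of the paper's methods. The paper's differentially expressed genes came from a two-way ANOVA and were significant for breed and for the interaction. The calls here are therefore not that set.

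Toll-like receptors are sensors of microbial molecules on macrophages, dendritic cells, B cells and epithelial cells. TLR1, TLR2, TLR4 and TLR6 work at the cell surface, where TLR2 pairs with TLR1 or TLR6 to read bacterial lipopeptides and TLR4 reads lipopolysaccharide with the help of LY96 and CD14. TLR3, TLR7, TLR8 and TLR9 work in endosomes and read nucleic acids, while TLR10 belongs to the TLR1 group and is best known from B cells. Most of them signal through the adaptor MYD88 to the kinases, NF-kB factors and interferon regulatory factors that drive cytokine genes.

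The arrays of a group resembled each other more than those of other groups. Pearson's r over the tested probes was 0.981 to 0.994 within groups, 0.961 to 0.967 between groups other than TL, and 0.918 to 0.941 between a TL array and an array of another group. For 48 probes with several spots, the median log2 difference was 0.059 between spots of an array and 0.064 between arrays of a group. At these probes the spread within groups, on which SEs and p-values rest, was thus close to that between spots. The TL arrays stood apart and had the higher raw signals, with medians of 324 and 333.5 against 207.5 to 230 on the other arrays. TH and DL arrays lay on one slide, and TL and DH arrays on the other, so the breed by altitude interaction and the slide cannot be told apart. TL and DH were also the moved groups, so the move cannot be told apart from the interaction either. Of 5 alveolar type II markers, 4 surfactant genes had a named probe, and all 4 had group means of 14.04 or more in every group, in keeping with the label of lung. Surfactant gene SFTPC had group means of 18.57 to 18.97 and passed for no term. SFTPD passed for breed at -0.67 (adjusted p = 4.15e-06) and for altitude at 0.64 (adjusted p = 5.69e-06), the signs of TLR9 and 2 TLR4 probes. SFTPB passed for the interaction at -0.87, which became -0.27 and was lost when each array was scaled to its 75th percentile instead. Of the 5 endothelial markers, PECAM1, CDH5, VWF and KDR passed for breed, at -0.66 to -0.34. PECAM1 passed for breed at 1 of its 3 probes. ACTA1 of skeletal muscle and HBB of red cells were higher in Tibetan pigs by 1.98 (0.50 with local background subtraction and an offset of 50) and 1.04. ACTA1 passed for breed at 1 of its 2 probes. The other skeletal muscle markers with a tested probe did not pass for breed at the brightest probe, CKM at 0.18, TNNT3 at 0.29 and MYLPF at -0.31. Among 4 airway markers BPIFA1 alone had a probe named for it, with means of 14.28 in TH and 15.70 in TL, against 10.49 in DH and 8.79 in DL. The part of these genes in the receptor differences was not tested.

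The most frequent pattern among the receptors was a low level in the Tibetan pigs moved to low altitude. TL had the lowest group mean at 9 of the 12 probes and in 7 of the 9 receptors at the brightest probe. TL was also the lowest group at 42.9% of all tested probes and at 52.3% of the tested probes that carry a RefSeq accession. Both TL arrays lay below all other arrays at 9 of 12 receptor probes, against 36.9% of all tested probes and 47% of those with a RefSeq accession. TH had the highest mean at 6 of 12 receptor probes, against 24.7% of all tested probes and 34.6% of those with a RefSeq accession. DH was highest at 4 of 12, the TLR8 probe and 3 TLR4 probes, against 17.3% of all tested probes. With 75th percentile scaling TL was lowest at 9 receptor probes too, but TLR2 and A_72_P165431 of TLR4 replaced TLR3 and TLR6. That scaling also raised the TL share among tested probes with a symbol from 48.9% to 58.8%. In the processed scanner signals, before normalization, TL was not the lowest group for TLR3, TLR6, TLR7 or the TLR4 probes A_72_P180746 and A_72_P303724. In bulk tissue, fewer cells that express a receptor and less receptor RNA per cell cannot be told apart.

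**Figure D1:**
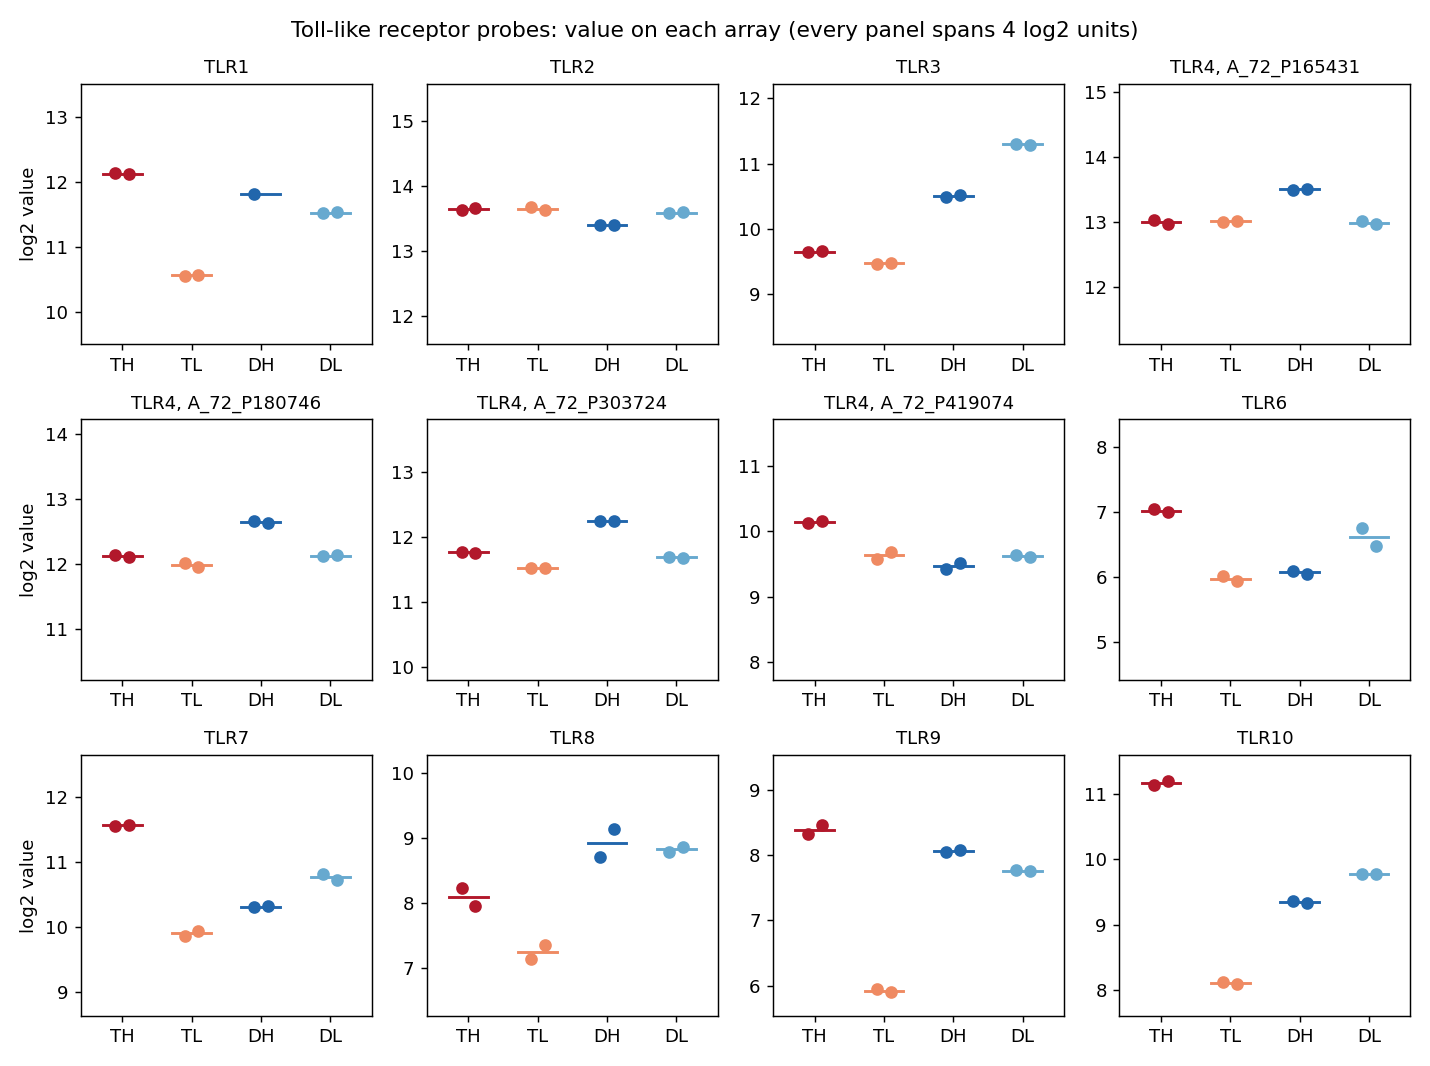
Log2 value of each array (points) and group mean (lines) for the 12 Toll-like receptor probes, each panel spanning 4 log2 units; TLR1 has 1 DH point because the second DH spot was left out. TL lies lowest for TLR1, TLR3, TLR6, TLR7, TLR8, TLR9 and TLR10, whereas 3 of the 4 TLR4 probes are highest in DH.

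TLR1, TLR6 and TLR10 neighbour each other on pig chromosome 8 in the Sscrofa11.1 annotation. TLR10 had log2 values of 11.14 and 11.20 in TH, 8.12 and 8.09 in TL, 9.36 and 9.34 in DH, and 9.77 and 9.77 in DL. The 4 groups did not overlap and ran in the order TH, DL, DH, TL. TH was 8.39-fold above TL, the widest span among the receptors, whereas DH was 1.34-fold below DL. For TLR10 the altitude effect (high minus low, averaged over the breeds) was 1.32 ± 0.02 (SE; adjusted p = 3.01e-06). The interaction, the altitude difference of the Tibetan breed less that of the Duroc breed, was 3.49 ± 0.04 (adjusted p = 1.02e-06). Its breed effect of 0.08 did not pass (adjusted p = 0.0252). Both TLR10 calls held with any 1 array left out. With local background subtraction and an offset of 50 the interaction was 2.20 and was still called.

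TLR1 was measured in TH at 12.14 and 12.12, in TL at 10.56 and 10.58, and in DL at 11.52 and 11.55. The first DH array gave 11.82. The second DH spot was marked as an outlier by the scanner software, with a median raw signal of 1015.5 against 3057 on the first DH array but a deposited value of 12.85, and it was left out of the fit. TLR1 thus rests on 7 arrays and on a single pig in DH, whose spread is assumed to match that of the other groups. TH was 2.95-fold above TL, and DH was 1.22-fold above DL. The altitude effect was 0.93 ± 0.02 (adjusted p = 1.59e-05) and the interaction 1.27 ± 0.04 (adjusted p = 3.89e-05), while the breed effect of -0.33 did not pass (adjusted p = 0.000297). With the outlier spot kept, both calls were lost, at adjusted p = 0.00671 for altitude and 0.195 for the interaction, which became 0.76. Both were also lost when any array of TH, TL or DL was left out.

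TLR6 was dim, with raw medians of 123 to 191 over the 8 arrays. Its log2 values were 7.04 and 7.001 in TH, 6.02 and 5.94 in TL, 6.10 and 6.06 in DH, and 6.75 and 6.49 in DL. TH was the highest group, and TL and DH lay close together without overlap. The order was that of TLR10, with TH 2.06-fold above TL and DH 1.45-fold below DL. No TLR6 effect passed the threshold. The interaction was 1.58 with a 95% interval of 1.24 to 1.92 (adjusted p = 0.00022), and it shrank to 0.26 with an offset of 50. With 75th percentile scaling, DH rather than TL was the lowest group.

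TLR2, the partner of both TLR1 and TLR6, differed least. Its log2 values were 13.63 and 13.66 in TH, 13.68 and 13.62 in TL, 13.40 and 13.40 in DH, and 13.58 and 13.59 in DL. TH and TL overlapped, and DH was lowest, 1.14-fold below DL. None of its effects passed: the breed effect was 0.15 (95% interval 0.10 to 0.21, adjusted p = 0.00152), the altitude effect was -0.09 (adjusted p = 0.0106) and the interaction was 0.18 (adjusted p = 0.0127). With 75th percentile scaling the TLR2 breed and altitude effects turned to -0.13 and 0.20, and the interaction became 0.73 and passed (adjusted p = 4.91e-05), with TL lowest and TH highest.

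TLR4, the lipopolysaccharide receptor, had the opposite leaning, with 3 of its 4 probes highest in the Duroc pigs moved to high altitude. At the brightest probe, A_72_P165431, the log2 values were 13.03 and 12.97 in TH, 13.00 and 13.02 in TL, 13.48 and 13.51 in DH, and 13.01 and 12.96 in DL. DH stood 1.43-fold above DL, and TH, TL and DL overlapped. None of the terms passed at this probe: altitude was 0.25 (adjusted p = 0.000338), breed -0.24 (adjusted p = 0.000416) and the interaction -0.52 (adjusted p = 0.000278). With 75th percentile scaling altitude was 0.51 (adjusted p = 2.18e-05) and breed -0.49 (adjusted p = 2.22e-05), so that both passed, while the interaction was -0.07 (adjusted p = 0.232) and TL became the lowest group.

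The next 2 TLR4 probes had the same shape and passed for breed and altitude. A_72_P180746, whose TLR4 name comes only from the study's own gene tables and so may reflect a selection on these arrays, gave 12.13 and 12.11 in TH, 12.01 and 11.96 in TL, 12.65 and 12.63 in DH, and 12.12 and 12.14 in DL. A_72_P303724 gave 11.77 and 11.75 in TH, 11.52 and 11.51 in TL, 12.24 and 12.25 in DH, and 11.70 and 11.67 in DL. Breed effects were -0.33 at both (adjusted p = 7.15e-05 and 3.18e-05), and altitude effects were 0.32 (adjusted p = 8.07e-05) and 0.40 (adjusted p = 1.72e-05). All 4 calls were lost when any 1 array was left out, with little change in the effects.

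The last TLR4 probe disagreed. A_72_P419074 gave 10.13 and 10.16 in TH, 9.58 and 9.69 in TL, 9.42 and 9.52 in DH, and 9.64 and 9.61 in DL, so that TH was highest and DH lowest. Over the 8 arrays its r with the other TLR4 probes was -0.55 to -0.33, whereas those 3 correlated with each other at 0.94 to 0.99. Its effects, 0.34 for breed, 0.18 for altitude and 0.67 for the interaction, did not pass (adjusted p = 0.000674, 0.00922 and 0.000719). All 3 breed effects of the other TLR4 probes were negative and this one was positive, so a single direction for TLR4 by breed cannot be given. Without probe sequences, which transcript parts the probes read could not be compared.

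Among the endosomal receptors, TLR3, the sensor of double-stranded RNA, separated the breeds. Its log2 values were 9.64 and 9.66 in TH, 9.46 and 9.48 in TL, 10.48 and 10.51 in DH, and 11.30 and 11.29 in DL. Every Tibetan array lay below every Duroc array. The breed effect was -1.34 ± 0.02 (adjusted p = 1.68e-06). The Tibetan level was lower by 1.80-fold at high altitude and by 3.54-fold at low altitude. The breed call held with any 1 array left out and under all 11 other processing alternatives. Of these, the slide block repeats the main breed estimate by construction. Within the slides TH minus DL was -1.65 and TL minus DH was -1.03. These are the breed effect plus or minus the altitude effect and so are no further test. TLR3 was also the only receptor lower at high altitude among those that passed, at -0.31 (adjusted p = 5.81e-05), and its interaction was 0.98 (adjusted p = 1.17e-05). DH was 1.74-fold below DL, and TH was 1.13-fold above TL. With 75th percentile scaling, TH rather than TL was the lowest TLR3 group, and both of these smaller calls were lost when any 1 array was left out.

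TLR7 and TLR8, sensors of single-stranded RNA, lie together on the X chromosome but had different profiles. TLR7 had log2 values of 11.56 and 11.58 in TH, 9.87 and 9.95 in TL, 10.31 and 10.33 in DH, and 10.82 and 10.73 in DL. The groups were separate and in the same order as for TLR10. TH was 3.16-fold above TL, and DH was 1.38-fold below DL. The interaction was 2.12 ± 0.06 (adjusted p = 5.47e-06) and held with any 1 array left out. The altitude effect was 0.60 ± 0.03 (adjusted p = 3.63e-05) and that call was lost when any 1 array was left out. For breed the difference was 0.19 and did not pass (adjusted p = 0.00283).

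TLR8 had log2 values of 8.23 and 7.95 in TH, 7.13 and 7.35 in TL, 8.70 and 9.14 in DH, and 8.78 and 8.87 in DL. Both Tibetan groups lay below both Duroc groups, and DH and DL overlapped. The breed effect was -1.21 with a 95% interval of -1.54 to -0.87. It did not pass (adjusted p = 0.000618), and TLR8 had the widest spread between pigs of a group, 0.44 in DH. Its altitude effect of 0.47 and interaction of 0.75 did not pass either (adjusted p = 0.0234 and 0.0476). The TLR8 breed effect was -0.50 with an offset of 50. RefSeq also lists TLR7 as an older name of TLR8, and TLR6 as one of TLR1; the probes were matched by accession, and cross-hybridization between relatives could not be checked.

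TLR9, the sensor of unmethylated CpG DNA, passed for all 3 terms. Its log2 values were 8.32 and 8.47 in TH, 5.95 and 5.89 in TL, 8.05 and 8.08 in DH, and 7.77 and 7.76 in DL. TL stood far below the other 3 groups. TH was 5.56-fold above TL, and DH was 1.23-fold above DL. The altitude effect was 1.39 ± 0.04 (adjusted p = 6.84e-06), the interaction 2.17 ± 0.08 (adjusted p = 1.11e-05) and the breed effect -0.75 ± 0.04 (adjusted p = 3.81e-05). TLR9 was dim in TL, at raw medians of 161 and 169 against 255.5 to 389 elsewhere. With an offset of 50 the effects shrank to 0.38, 0.57 and -0.13, and the breed call was lost. Altitude and interaction calls were lost without either array of TL, DH or DL, and the breed call remained only without the second TH array.

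Over the family, 4 of 12 probes passed for breed, all of them lower in Tibetan pigs: TLR3, TLR9 and 2 TLR4 probes. Over all tested probes, 27.6% passed for breed, and 14.7% passed with a negative sign. Among probes with a RefSeq accession these shares were 28.6% and 19.7%. The median absolute breed effect was 0.33 over the receptor probes and 0.42 over all tested probes. The count for breed is therefore close to that of the array as a whole. The receptor probes were all well above background on all arrays. In a separate fit of only the 24775 such probes, 12115 passed for breed, 7275 of them negative. That fit has its own variance moderation and p-value adjustment, so its shares are not directly comparable with the receptor counts of the main fit.

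For altitude, 7 of 12 receptor probes passed: TLR1, TLR7, TLR9, TLR10 and 2 TLR4 probes were higher at high altitude, and TLR3 was lower. In the background 26.4% of all tested probes passed, and 35.6% of those with a RefSeq accession. In the separate fit of the 24775 probes well above background on all arrays, 12191 passed for altitude, 6765 of them positive. The share that passed with a positive sign was 14.1% of all tested probes and 25.3% of those with a RefSeq accession, and 12.3% of all tested probes passed with a negative sign. The median altitude effect was 0.36 over the receptor probes, 0.01 over all tested probes and 0.16 over those with a RefSeq accession. Each receptor with an altitude call and a positive sign, other than the TLR4 probes, had a wider altitude difference in the Tibetan than in the Duroc breed.

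For the interaction, 5 of 12 receptor probes passed, all positive: TLR1, TLR3, TLR7, TLR9 and TLR10. Over all tested probes 28.6% passed and 15% passed with a positive sign. In the separate fit of the 24775 probes well above background on all arrays, 12227 passed, 7530 of them positive. Among probes with a RefSeq accession 27.9% passed, and 21.9% passed with a positive sign. The median interaction was 0.86 over the receptor probes, 0.21 over all tested probes and 0.37 over those with a RefSeq accession. TLR1 and TLR9 had altitude differences of the same sign in both breeds, and TLR3, TLR7 and TLR10 had differences of opposite sign. All contrasts between altitudes within a breed compare arrays of different slides, and a moved group with an unmoved group. Within the slides, where breed and altitude change together, TH minus DL was 1.40 for TLR10, 0.79 for TLR7, 0.63 for TLR9 and 0.60 for TLR1. The corresponding TL minus DH differences on the other slide were -1.25, -0.41, -2.14 and -1.25. These differences are the breed effect plus or minus the altitude effect and so are no further test.

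**Figure D2:**
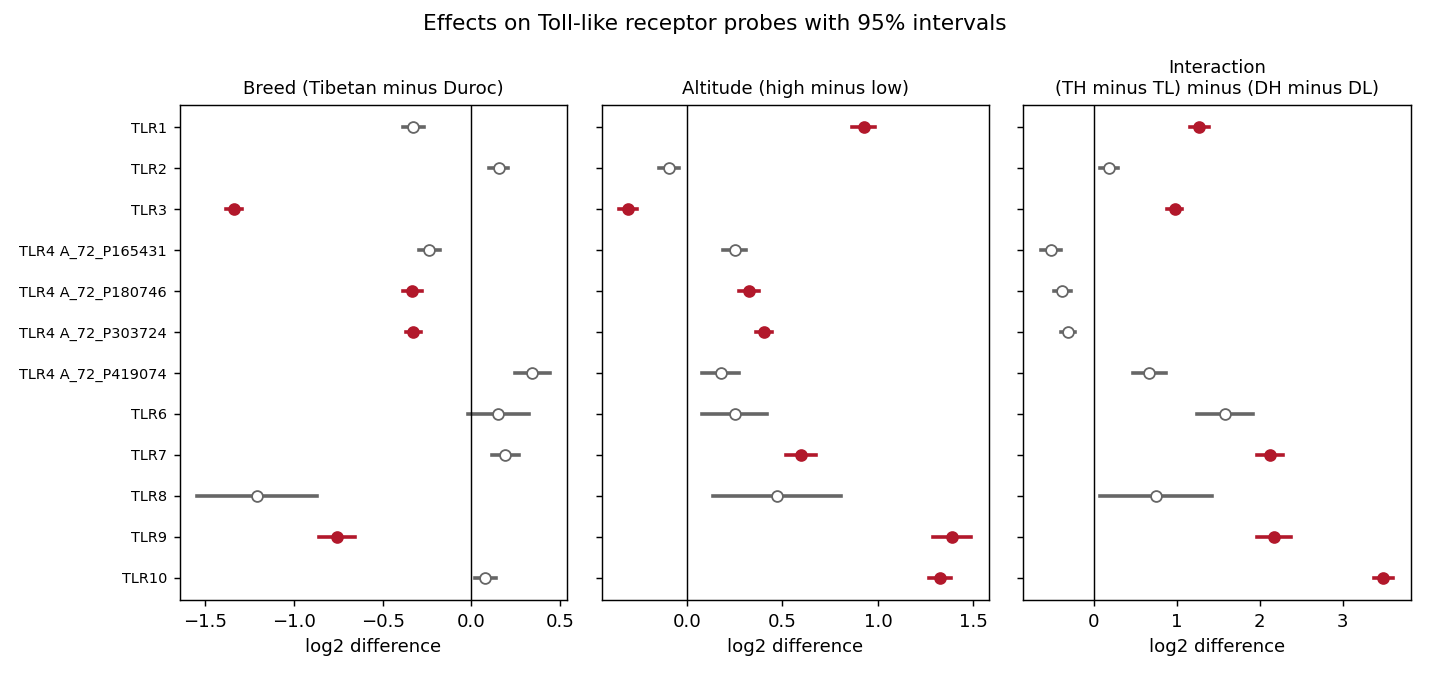
Log2 effects (points) with 95% intervals (bars) of breed, altitude and their interaction for the 12 Toll-like receptor probes from limma over 8 arrays; filled red points passed FDR < 0.0001. The called breed effects lie below 0, the called interactions above 0, and TLR10 has the widest interaction at 3.49.

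The receptors fell into a few profiles over the arrays, given here as description since the 8 arrays share 4 groups and 2 slides. TLR7 and TLR10 had r = 0.98, TLR6 and TLR7 0.97, and TLR6 and TLR10 0.92. TLR1 and TLR9 had r = 0.99 over 7 arrays. TLR3 and TLR8, both higher in Duroc pigs, had r = 0.82. TLR2 and TLR4 had r = -0.95, although the TLR2 values spanned only 1.19-fold.

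Among the 2065 or 2066 named genes (depending on the receptor) whose group means spanned at least 1 log2 unit, the profiles closest to each receptor were looked up, at the brightest probe of each gene. Most of these names come from the study's gene tables, which include its lists of changed genes, so genes that did not change may be under-represented. SPATA5L1 followed TLR10 (r = 1.00), with 10.72 in TH and 8.63 in TL. The closest probe to TLR10 carries a microRNA symbol that was not matched by accession and is not given. For TLR7 the nearest were LOC100037924 and GVIN1, both at r = 1.00. For TLR9 they were LOC102164588 and BCL11B, a lymphocyte transcription factor, at r = 1.00. CYSLTR1, a leukotriene receptor, and XKRX were nearest to TLR6 (r = 0.99 and 0.98). NEURL1 and ADGRG2 were nearest to TLR3 (both 1.00). CXCL9, an interferon-induced chemokine, followed TLR4 (0.99), with 10.86 in DH and 8.34 to 8.79 in the other groups. TYR ranked above it (0.99) but was well above background only in DH, so its rank rests on values without an order in the other 3 groups. The probe of CYSLTR1 was not well above background on 1 of the 2 DH arrays. ALDH1A1 and SDS were nearest to TLR2 (0.99 and 0.98), TNNI2 and APOBEC3H to TLR8 (both 0.98), and SLX4 and SLC2A5 to TLR1 (both 1.00 over 7 arrays). With 4 groups, many genes reach such values.

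The proteins that work with the receptors were described through a list of 53 pathway genes, of which 32 had a tested probe. At the brightest probe, breed effects passed for 5 genes with a positive and 7 with a negative sign, and altitude effects for 11 and 4. The interaction was positive for 6 and negative for 3. The names of 9 of the 32 come only from the study's gene tables, which include its lists of changed genes. Among the 23 named by a RefSeq accession the counts were 3 and 7 for breed, 9 and 3 for altitude, and 5 and 2 for the interaction. The corresponding background shares are the 27.6%, 26.4% and 28.6% of all tested probes given above. Nearly all of these genes were well above background on all arrays, and the separate fit of such probes called more probes, as given above. The median altitude effect of the list was 0.14 and its median interaction 0.29.

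Several co-receptors moved with altitude in both breeds. CD14, which hands lipopolysaccharide to TLR4, had means of 13.79 in TH and 13.16 in TL, against 14.39 in DH and 13.78 in DL. Its altitude effect came to 0.62 (adjusted p = 1.78e-05), and the breeds differed by -0.61 (adjusted p = 1.72e-05). CD180, a TLR4 relative of B cells and myeloid cells, was higher at high altitude by 1.39 (adjusted p = 3.75e-06), and its Tibetan minus Duroc difference was -0.52 (adjusted p = 4.51e-05). LY86, the partner of CD180, passed for altitude at 1.45 (adjusted p = 3.07e-06), for breed at -1.46 (adjusted p = 2.23e-06) and for the interaction at 1.50 (adjusted p = 8.70e-06). For these 3 genes the breed effect was negative and the altitude effect positive, as for TLR9 and 2 TLR4 probes.

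The other accessory proteins differed. LY96, the partner of TLR4, had means of 14.38 in TH and 14.39 in TL, against 14.15 in DH and 14.56 in DL, and no effect passed. LBP, which carries lipopolysaccharide in plasma, had an interaction of 1.96 (adjusted p = 4.51e-05), with 8.17 in TH against 6.50 to 6.93 elsewhere. It became 0.56 with an offset of 50 and still passed. CD36, a scavenger receptor that assists TLR2 and TLR6, differed by -0.53 between high and low altitude (adjusted p = 1.36e-05), and its interaction was -0.74 (adjusted p = 3.89e-05). With 75th percentile scaling these were -0.16 and -0.14 and neither passed. CNPY3, a chaperone of several receptors, was higher in Tibetan pigs by 0.59 (adjusted p = 8.97e-05), with -1.38 for the interaction (adjusted p = 4.93e-05), and that scaling lost both calls at 0.28 and -0.92. In the main fit the CNPY3 interaction was called at 1 of 2 probes. The CD36 altitude and interaction calls were each made at 3 of 5 probes. The adaptor MYD88 had means of 15.88 in TH and 15.92 in TL, against 16.18 in DH and 16.14 in DL, and no effect passed at its brightest probe. The name of this MYD88 probe also comes only from the study's tables, and no probe was named for another adaptor of the list.

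Downstream of the adaptors, single genes passed in both directions. TRAF6, the ubiquitin ligase of the MYD88 branch, had means of 10.86 in TH and 10.76 in TL, against 10.34 in DH and 12.40 in DL. TRAF6 passed for the interaction at 2.15 (adjusted p = 1.54e-06) and for altitude at -0.98 (adjusted p = 3.30e-06). The altitude call was made at 1 of its 2 probes. IKBKG, a subunit of the kinase that releases NF-kB, passed for altitude at 0.99 (adjusted p = 4.43e-06) and for breed at -0.66 (adjusted p = 9.18e-06), which became 0.54 and -0.34 with an offset of 50. The IKBKG breed call was lost with normal-exponential background and no offset, at -0.60 (adjusted p = 0.000112). IRF3 had means of 11.16 in TH and 9.31 in TL, against 10.96 in DH and 10.61 in DL. IRF3 thus had TL as its lowest group, and its interaction was 1.52 (adjusted p = 1.31e-05). IRF7, which acts below TLR7 and TLR9 and is named only through the study's tables, was highest in TH at 16.06 against 14.38 to 14.85 in the other groups. Its interaction was 1.80 (adjusted p = 3.30e-06).

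Cytokine and chemokine genes that these pathways induce had mixed signs. TNF had an altitude effect of 0.93 (adjusted p = 4.54e-06) and IL6 an interaction of 0.97 (adjusted p = 7.06e-05). The IL6 interaction was 0.64 with 75th percentile scaling (adjusted p = 0.000234) and did not pass. In the main fit TNF passed for altitude at 2 of 3 probes and IL6 for the interaction at 1 of 2. CXCL8 differed by -1.12 between high and low altitude (adjusted p = 3.01e-06) and was higher in Tibetan pigs by 1.01 (adjusted p = 2.55e-06). CCL5, also named only through the study's tables, had the largest effect of the list, -3.00 for the interaction (adjusted p = 1.27e-06), with 12.55 in TL and 9.74 to 10.88 in the other groups. CCL5 was thus highest in the group in which most receptors were lowest.

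**Figure D3:**
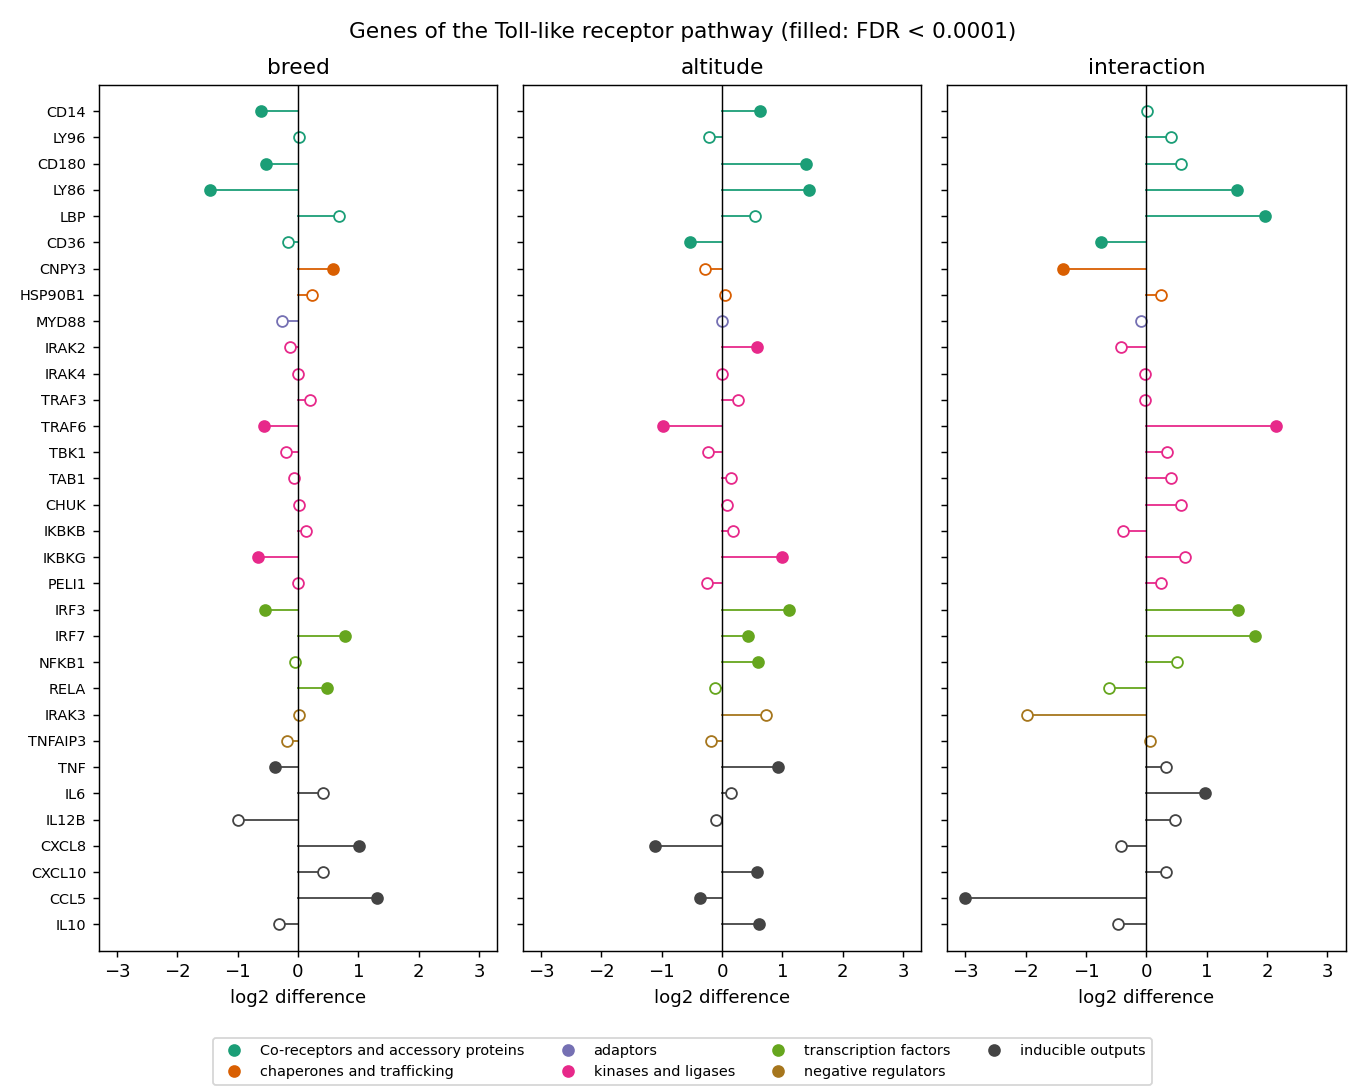
Log2 breed, altitude and interaction effects at the brightest probe of the 32 pathway genes with a tested probe, coloured by role; filled points passed FDR < 0.0001. CD14, CD180 and LY86 have negative breed and positive altitude effects, and CCL5 has the lowest interaction at -3.00.

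Markers of immune cells also differed between the groups. Of the 4 B cell markers described here, CD79A and, named only through the study's tables, MS4A1 had a named probe, and both were highest in TH and lowest in TL. Their summed linear level was 29595 to 29812 in TH, 5276 to 5379 in TL, 7059 to 7126 in DH and 7472 to 7690 in DL. CD79A had means of 12.48 in TH and 8.28 in TL, against 9.57 in DH and 9.80 in DL, and its interaction came to 4.43 (adjusted p = 9.22e-07). The group order is that of TLR6, TLR7 and TLR10. Of 5 dendritic cell markers, XCR1 and IRF8 had a tested probe, with sums of 1957 to 2115 in TH, 645 to 651 in TL, 1378 to 1422 in DH and 1197 to 1284 in DL. XCR1 passed for altitude at 1.00 and for the interaction at 1.48 (adjusted p = 8.74e-06 and 1.78e-05), whereas IRF8 passed for no term (adjusted p = 0.0143 to 0.158). Of the 5 T cell markers, 4 were highest in TH and 4 lowest in TL, and their sums were 31168 to 31562 in TH, 19926 to 20566 in TL, 27184 to 28325 in DH and 18866 to 18981 in DL. The 3 macrophage markers with a named probe, of 6 listed, had sums of 147130 to 148370 in TH, 168110 to 173970 in TL, 215230 to 218020 in DH and 182550 to 182970 in DL, a sum that CD163 dominates. CD163 and CD14 were highest in DH, at 17.18 and 14.39, whereas MRC1 was highest in DL, at 15.76 against 15.52 in DH. No probe was named for any of the 5 neutrophil markers. The part of these cell types in the receptor differences was not tested.

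**Figure D4:**
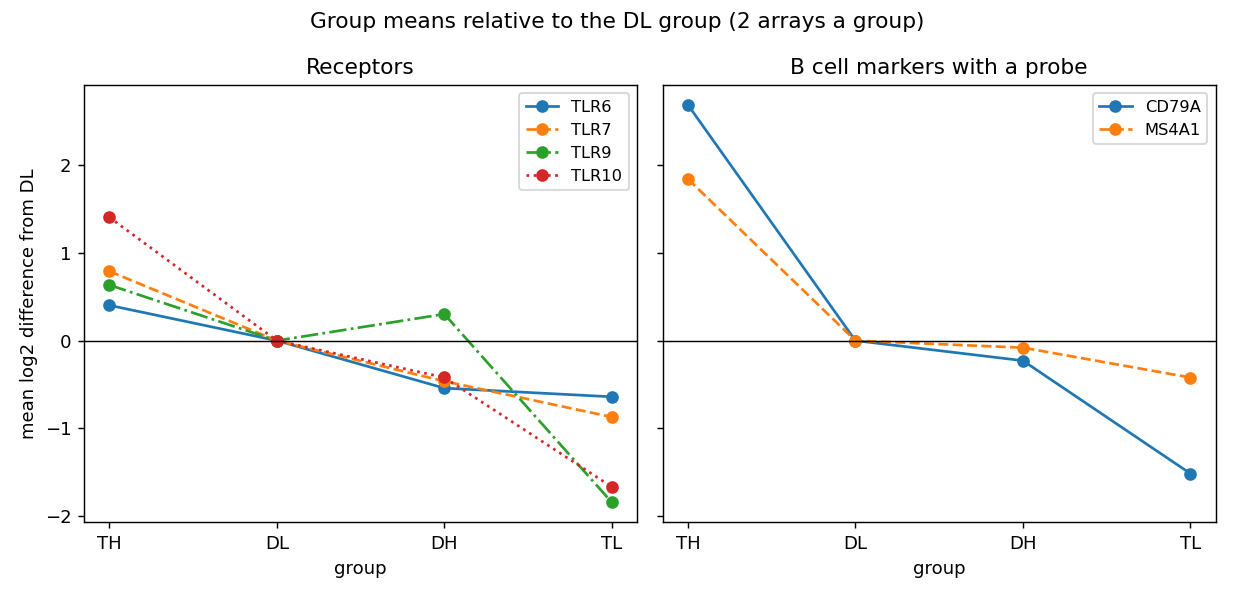
Mean log2 difference of each group from DL for TLR6, TLR7, TLR9 and TLR10 (left) and for the B cell markers CD79A and MS4A1 (right), with 2 arrays a group and lines only joining the means of 1 gene. TH is highest and TL lowest in every line, and the markers lie further above DL in TH than the receptors do. TLR1 and the 2 dendritic cell markers with a tested probe, not drawn, also have TH highest and TL lowest.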

How the data were processed

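RNA of 8 lungs was hybridized singly to 1-colour Agilent porcine arrays by the authors, who read them with Feature Extraction 10.7.3.1. The values used are the deposited log2 values, which ranked the probes of an array as the processed scanner signals did (Spearman's rho at least 0.99999). Quantile-normalized log2 processed signals recomputed from the scanner files differed from them by a median of at most 2.70e-05 an array. The largest difference was 3.36, on the first DL array, and the largest at a receptor probe was 0.00044. The deposited scanner intensity columns supplied background and outlier flags and the alternative scalings. Values resting on spots marked as outliers (143 values of 142 probes, 1 of them a TLR1 value) were left out. Probes were named by RefSeq accession, otherwise by the study's gene tables; both sources agreed on the symbol for 98.3% of the 660 probes named by both. No genome or probe sequence was used. Of the marker lists, 1 gene is not reported here in any sum or count.

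A two-way model (breed, altitude, interaction) was fitted with limma 3.58.1 in R 4.3.3 to the 34406 probes that any array had well above background. P-values were adjusted over all of these by the Benjamini-Hochberg procedure. On simulated data with 200 of these probes changed, 124 were recovered for a breed effect of 2 and 124 for an interaction of -4, with 0 false calls. The simulated noise was independent and normal, without slide differences, and far fewer probes were changed than pass in the data. It thus checks the fitting code and does not give the recovery or false calls in these data. The members, lists and tests were chosen with earlier results of these data known. All 12 receptor probes are described, with the brightest probe in full; pathway genes were named where a term passed, up to 12 by effect size, together with all co-receptors and adaptors. Alternatives were 3 other scalings, other filters, variance models, thresholds, replicate or slide blocks and leaving out each array; keeping outlier spots was chosen after seeing the data. Deviations of same-numbered arrays correlated at -0.04 to 0.09, so the numbers do not pair the pigs. The number of arrays limits the precision.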

Additional observations from a re-analysis of the deposited data

Results flagged for a closer look

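At 5 receptor probes the altitude difference was not the same in the 2 breeds by the interaction term of limma at FDR < 0.0001. The difference between the breeds' altitude effects was 3.49 for TLR10, 2.17 for TLR9, 2.12 for TLR7, 1.27 for TLR1 and 0.98 for TLR3, on the log2 scale. In Tibetan pigs TH minus TL was 3.07, 2.47, 1.66, 1.56 and 0.18 for the same receptors. In Duroc pigs DH minus DL was -0.42 for TLR10, 0.30 for TLR9, -0.46 for TLR7, 0.29 for TLR1 and -0.80 for TLR3. The interaction, the slide and the move between altitudes cannot be told apart. Groups of 2 arrays are too small for a check of single outlying pigs.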

How the results depend on the processing

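Each receptor effect was counted once for each alternative other than leaving out an array. Of these counts, 378 kept direction and side of the threshold, 30 lost and 46 gained a call, and 2 changed sign. The 378 include effects without a call in the main fit, and the thresholds of 0.01 and 0.05 can only add calls. The changes of sign came with 75th percentile scaling, where the TLR2 breed effect became -0.1256 and the TLR2 altitude effect 0.1998. That scaling moved the median interaction of all probes from 0.21 to 0.33 and the altitude calls of all probes from 4862 higher and 4235 lower to 6700 and 3755. Receptor probes passing for breed numbered 4; they were 2 with normal-exponential background and no offset, 1 with an offset of 50, 2 without moderated variances, 7 with an intensity trend, 10 at FDR < 0.01 and 11 at 0.05. For altitude the 7 became 4 without an offset and 12 at 0.05. For the interaction the 5 became 8 with a trend, 10 at 0.01 and 12 at 0.05. Pathway genes passing for breed went from 12 to 19 when a signal above background was asked on all arrays, 7 without moderation, 21 with a trend, 23 at 0.01 and 26 at 0.05. For altitude they went from 15 to 25 and 27 at these thresholds, and for the interaction from 9 to 19 with a trend and 24 and 27 at the thresholds. Of the 36 pathway effects that passed, 30 still passed with 75th percentile scaling, 35 with an offset of 50 and 25 with no offset, and none changed sign.

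With the replicate number as a block, which costs a degree of freedom in a design where the numbers do not pair the pigs, receptor counts were 1, 2 and 2 and pathway counts 5, 7 and 3 for breed, altitude and interaction. Leaving out 1 array gave 1 to 2 receptor probes for breed, 1 to 2 for altitude and 2 to 3 for the interaction, and 4 to 4, 6 to 7 and 3 to 4 pathway genes. In these fits no receptor effect changed sign, but most receptor effects called in the main fit lost their call. Over all tested probes the calls fell as well, to 1270 to 3918 a term with 1 array left out and to 5645, 5271 and 5671 without moderated variances, from 9492, 9097 and 9832. Without the first DH array TLR1 has no DH value and was not fitted. A slide block could not be fitted with the interaction. In place of the interaction it is the same contrast of groups, so its unchanged breed and altitude counts are no further test.

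Precision is limited by 2 pigs a group, and for TLR6 and TLR9 by signals near background.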

Other observations

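The scanner's outlier mark on TLR1 in the second DH array was the only one among the spots of the 12 receptor probes. Between the 2 DH arrays the deposited TLR1 values differed by 1.02, a difference reached by 2 of the 2508 probes whose mean lay within 0.5 log2 units of that of TLR1. Its processed signal was 6859 on that array and 3396 on the other, in the reverse order of the median raw signals.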
